A study of Mus musculus with 7 samples.

Results

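Receptors for the hormones that drive a follicle to ovulation and a corpus luteum to its end were examined in mouse granulosa cells. The set held 7 genes chosen by symbol, Fshr, Lhcgr, Prlr, Pgr, Ptgfr, Insr and Oxtr, out of 55228 rows of the count table. All 7 symbols had exactly 1 row each. A total of 6 members passed the filter on low counts and were tested among 15798 genes, and Lhcgr stayed under it.

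The libraries were bulk RNA-seq of primary granulosa cells from the ovaries of C57BL/6J mice that received no treatment. The groups were mice labelled Fhl2 KO (3 libraries) and WT (4 libraries). The labels give no age, no hormone priming, no culture time and no description of the deleted allele or of the cells that carry the deletion. The series title names follicle growth, fertility and EGF receptor and YAP signalling as its subjects, and FHL2, whose LIM domains let it act as a cofactor of transcription, as the missing protein.

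In a growing follicle, FSH acts on FSHR of granulosa cells and, together with estradiol, brings about the appearance of LHCGR, through which the LH surge triggers ovulation and luteinization. The surge induces the progesterone receptor PGR in the same cells. After ovulation the rodent corpus luteum is maintained by prolactin through PRLR and is broken down by prostaglandin F2alpha through PTGFR. OXTR binds oxytocin, a luteolytic hormone in ruminants, and INSR conveys insulin, which adds to FSH action.

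Total counts per library ran from 38855596 to 50514556, and the floor used below, 3 counts, equals 0.0598 to 0.0775 CPM, the count scaled by the TMM library size. Fhl2, the targeted gene, had 47.9, 66.8 and 60.4 CPM in the Fhl2 KO libraries, against 101.0, 114.2, 106.0 and 109.9 CPM in WT. Fhl2 fell (log2 fold change -0.88, edgeR adjusted p = 3.29e-05), with reads still present in each library labelled Fhl2 KO. Summed CPM of 10 granulosa cell markers other than Fshr was 3079 to 3347 in Fhl2 KO and 2654 to 2903 in WT, but 4 of the 9 tested fell and 2 rose. The higher sum came from Inha, and without it the markers summed to 1452 to 1544 CPM in Fhl2 KO against 1675 to 1834 CPM in WT. Stroma and fibroblast markers summed to 118.3 to 163.9 CPM in Fhl2 KO against 364.8 to 422.7 CPM in WT, with 5 of 8 tested lower and none higher. The collagen genes Col3a1, Col1a1 and Col1a2 made up most of these sums. Without Col3a1 the sums were 51.1 to 68.8 CPM in Fhl2 KO against 154.6 to 195.4 CPM in WT. Endothelial markers summed to at most 4.69 and 4.85 CPM. The part of such other cells in the receptor values was not tested. The libraries also differed in how the level of a gene depended on its exonic length. With each doubling of length, the log2 CPM of a library moved against the average library by -0.00444, -0.111 and -0.0896 in Fhl2 KO libraries 1 to 3 and by 0.0413 to 0.0618 in the WT libraries. These differences cannot be told apart from genotype, so values corrected for length and GC content are given beside the uncorrected ones where the 2 differ.

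Among the members, Ptgfr, Oxtr and Fshr were higher in Fhl2 KO and Insr was lower, while Prlr and Pgr did not pass the test. Thus 4 of the 6 members tested were called at an edgeR adjusted p under 0.05. Of these, Ptgfr was tested through its Fhl2 KO reads alone, so its place in this and the following counts adds no support. Across all genes tested 29.0% were called, 13.5% higher and 15.6% lower. Among the 6 members tested, Ptgfr, Oxtr and Insr had no overlap between the groups, as had 34.2% of all genes tested. Lhcgr, which was not tested, had no overlap either. With length and GC content corrected for, 3 members were called, namely Ptgfr, Oxtr and Prlr, all higher, where 25.6% of all genes were called, 13.8% higher and 11.8% lower. In such bulk samples, more cells of a kind and more RNA per cell cannot be told apart.

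**Figure D1:**
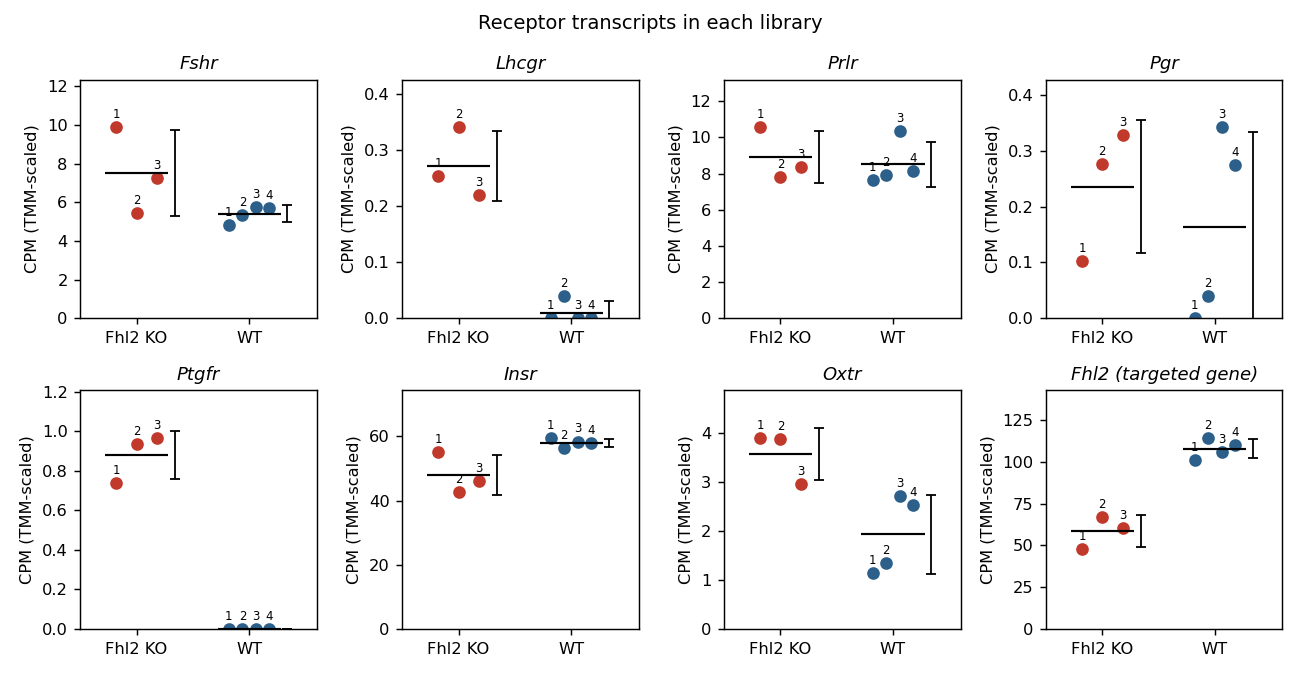
TMM-scaled CPM of each receptor gene and of Fhl2 (y axis, from 0) in each library, Fhl2 KO left and WT right; points are libraries with their replicate number, horizontal lines are means and the bar beside each group is ± SD (n = 3 and 4), drawn from 0 where it would go below. Ptgfr, Lhcgr and Oxtr have all 3 Fhl2 KO libraries above every WT library, Insr has them all below, and the groups overlap for Fshr, Prlr and Pgr.

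Levels compared between genes were taken as CPM per kb of exonic length (the union of all annotated exons). In Fhl2 KO the order was Insr (3.49 ± 0.463 CPM per kb, SD, n = 3), Fshr (3.18 ± 0.944), Oxtr (0.748 ± 0.112), Prlr (0.581 ± 0.0945), Ptgfr (0.130 ± 0.0182), Lhcgr (0.0356 ± 0.00817) and Pgr (0.0276 ± 0.0139). In WT it was Insr (4.22 ± 0.0938 CPM per kb, SD, n = 4), Fshr (2.29 ± 0.186), Prlr (0.556 ± 0.0812), Oxtr (0.404 ± 0.168), Pgr (0.0192 ± 0.0199), Lhcgr (0.00130 ± 0.00261) and Ptgfr (no reads). Insr and Fshr overlapped between libraries in Fhl2 KO but not in WT, and Oxtr and Prlr overlapped in both groups. Lhcgr and Pgr overlapped in both groups as well, and Ptgfr lay above both of them in Fhl2 KO. With the length of the longest transcript in place of the union, Insr and Fshr no longer overlapped in Fhl2 KO, Prlr stood above Oxtr in both groups, and that pair no longer overlapped in WT. Granulosa cells of both genotypes thus carried more transcript of the FSH receptor per kb than of the LH, progesterone or prostaglandin F receptor.

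FSHR is the Gs-coupled receptor that raises cAMP in granulosa cells. Fshr (chromosome 17, 88984952 to 89200675, minus strand, mm10, 2.36 kb of exon) had 387, 255 and 330 reads in Fhl2 KO libraries 1 to 3, against 186, 268, 269 and 249 reads in WT libraries 1 to 4. Scaled, this was 9.87, 5.43 and 7.25 CPM in Fhl2 KO and 4.802, 5.34, 5.75 and 5.70 CPM in WT. Fhl2 KO libraries 1 and 3 were above every WT library, and Fhl2 KO library 2 lay within the WT range. The mean was 7.52 ± 2.23 CPM in Fhl2 KO (SD, n = 3) and 5.40 ± 0.439 CPM in WT (SD, n = 4), a 1.39-fold higher level (0.47 on the log2 scale with an SE of 0.172, edgeR adjusted p = 0.0477). The call was lost on leaving out Fhl2 KO library 1 (log2 fold change 0.25, edgeR adjusted p = 0.221), Fhl2 KO library 3 (0.125), or WT library 1, 2, 3 or 4 (0.0999, 0.0730, 0.0798 and 0.0759), and once corrected (log2 fold change 0.41, 0.106). It passed most clearly without Fhl2 KO library 2 (log2 fold change 0.67, edgeR adjusted p = 0.00563) and for Fhl2 KO library 1 alone against WT (0.87, 0.00451).

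LHCGR, the receptor of LH, also signals through Gs and marks theca cells, preovulatory granulosa cells and luteal cells. Lhcgr (chromosome 17, 88716481 to 88791990, minus strand) had 10, 16 and 10 reads in Fhl2 KO libraries 1 to 3, against 0, 2, 0 and 0 reads in WT libraries 1 to 4. Every Fhl2 KO library was above the floor of 3 counts and no WT library was. Over the groups, 36 reads in Fhl2 KO and 2 reads in WT correspond to 0.273 and 0.0112 CPM, a ratio of 24.5 with an exact 95% interval of 6.31 to 210.2 that covers counting error only. Fitted without the filter on low counts, Lhcgr passed with an edgeR adjusted p of 0.00183, while DESeq2 gave it no adjusted p. Both WT reads came from WT library 2. Without that library, and with 3 counts allowed over the other WT libraries, the ratio of Fhl2 KO to WT was 11.8 for Lhcgr. The exact 95% interval then began at 9.09-fold, for counting error only. Among 6 markers of theca and steroidogenic interstitial cells other than Lhcgr, 4 were tested, 2 rose (Aldh1a1 and Fdx1) and 1 fell (Ptch1). Their sum was 8305 to 8788 CPM in Fhl2 KO against 6379 to 6989 CPM in WT, most of it Aldh1a1, and without that gene 553.5 to 630.3 CPM against 349.8 to 371.4 CPM in WT. Cyp17a1 and Insl3, the defining markers of theca cells, had at most 3 and 2 reads in any library. The part of such cells in the Lhcgr reads was not tested.

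The gonadotropin receptors can also be set against each other within a library, where scaling cancels. For every 100 Fshr reads there were 3.70 Lhcgr reads in Fhl2 KO and 0.206 in WT, pooled over libraries. The log2 ratio of Lhcgr to Fshr counts (0.5 added to each) was -5.21, -3.95 and -4.98 in Fhl2 KO and -8.54, -6.75, -9.07 and -8.96 in WT. Each Fhl2 KO library was above each WT library, and the means differed by 3.62 (two-sided exact permutation p = 0.0571, the smallest that 35 splits of 3 against 4 libraries allow). The WT values depend on the 0.5 added, as Lhcgr was at 0 in all WT libraries but library 2.

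Fshr and Lhcgr lie on the same strand of chromosome 17, and the bases before their starts differ in composition. They are shown because the literature on rodents places the action of USF1 and USF2 on an E-box of the Fshr promoter, and that of SP1 and SP3 on GC boxes of the Lhcgr promoter. RefSeq (GRCm38.p6) gives chr17:89200676-89200925 for Fshr and chr17:88792015-88792264 for Lhcgr, both on the minus strand, printed 5′ to 3′ with matches to searched motifs in capitals.
Fshr: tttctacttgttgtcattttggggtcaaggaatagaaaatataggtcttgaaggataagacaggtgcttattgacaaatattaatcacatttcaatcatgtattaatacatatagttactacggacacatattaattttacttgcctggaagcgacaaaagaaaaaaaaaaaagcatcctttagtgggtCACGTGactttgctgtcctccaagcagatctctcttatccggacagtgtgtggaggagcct
Lhcgr: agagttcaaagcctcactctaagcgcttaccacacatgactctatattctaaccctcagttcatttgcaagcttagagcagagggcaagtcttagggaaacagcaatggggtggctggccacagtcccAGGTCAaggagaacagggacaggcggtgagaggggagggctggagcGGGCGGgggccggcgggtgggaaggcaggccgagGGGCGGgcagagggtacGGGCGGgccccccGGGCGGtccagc
A total of 6 motifs was searched on both strands. The E-box was spelled CACGTG, while the GC box was given by the letters GGGCGG. For a nuclear receptor half-site the letters were AGGTCA, whereas the TATA box was searched for as TATAAA. The GATA box had the letters AGATAA, and the STAT site was TTCNNNGAA, where N is any base. The Fshr window had 36.8% GC and a single CACGTG from 61 to 56 bases before the start, a motif found in 6.02% of 32851 promoter windows of that length. The Lhcgr window had 63.2% GC, with 4 GGGCGG within the last 76 bases and 1 AGGTCA, motifs found in 32.7% and 14.0% of windows. No 2 matches overlapped in these windows. Such matches describe the letters and are not measured binding.

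Of 19 tested transcription factors reported at the promoters of Fshr and Lhcgr, 2 were higher, 5 were lower and 12 did not pass (after correction 3 higher and 3 lower). The share called was 36.8%, against 29.0% of all genes tested. The median log2 fold change of the factors was -0.15 (corrected -0.05), against -0.000184 over all genes. Gata6 (-0.55, SE 0.0966, edgeR adjusted p = 9.07e-04) and Foxl2 (-0.42, SE 0.104), a factor of granulosa cell identity, fell. Sp1 fell (log2 fold change -0.38, SE 0.0981), but its corrected value of -0.13 did not pass (edgeR adjusted p = 0.225). Nr5a1, the steroidogenic factor SF-1, rose by 0.35 (SE 0.0927, corrected 0.31). Without Fhl2 KO library 3 the counts were 0 higher and 2 lower, and without Fhl2 KO library 1 they were 5 and 6. The lower count was 3 without Fhl2 KO library 2 or WT library 1 or 4, and the higher count was 1 without WT library 3 or 4. Usf1 (0.22, edgeR adjusted p = 0.106), Usf2 (0.19, 0.156) and Sp3 (-0.02, 0.934), named after their values were seen, did not pass.

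PRLR is a cytokine receptor that activates JAK2 and STAT5. Prlr (chromosome 15, 10177238 to 10349180, plus strand) had 10.6, 7.82 and 8.34 CPM in Fhl2 KO libraries, against 7.67, 7.93, 10.4 and 8.13 CPM in WT. Fhl2 KO library 1 and WT library 3 were the high ones of their groups, and the ranges overlapped. The log2 fold change was 0.06 (SE 0.145, edgeR adjusted p = 0.791), and -0.06 without Fhl2 KO library 1. Corrected for length and GC it was 0.43 (SE 0.108, edgeR adjusted p = 0.00999), and 0.47 (0.00613) with the longest transcript as the length. Prlr is among the longest genes tested, with 15.3 kb of exon and 12 annotated transcripts, which include the long and short receptor forms that a count per gene does not separate. Among the 1558 genes of the bin of longest exons the median was -0.32 on the log2 scale, and 87.7% of them had a lower value than Prlr.

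Among 17 tested genes of the prolactin receptor, JAK2 and STAT5 pathway, 1 rose, 5 fell and the other 11 did not pass (after correction 3 higher and 2 lower; median -0.26, corrected -0.05). Calls made up 35.3% of this list, against 29.0% of all genes tested. Stat5a, which encodes a form of STAT5, had 67.0 ± 3.76 CPM in Fhl2 KO (SD, n = 3) and 50.1 ± 3.20 CPM in WT (SD, n = 4). Stat5a was the gene that rose (log2 fold change 0.42 with SE 0.0902, edgeR adjusted p = 0.00346). It passed in all 21 alternative settings, with 0.37 to 0.60 on the log2 scale. Among those that fell were Socs7 (-0.49, corrected -0.36) and Socs2 (-0.36, corrected -0.05, edgeR adjusted p = 0.728), members of a family that damps cytokine receptors, and the phosphatase Ptpn11 (-0.46, corrected -0.26). None of the list was lower without Fhl2 KO library 3, and 2 were higher without WT library 3. Jak2 itself, named after its value was seen, was at -0.15 (SE 0.103, edgeR adjusted p = 0.301). Stat5b, named in the same way, was at 0.16 (SE 0.0951, edgeR adjusted p = 0.210). Its corrected value of 0.24 passed (edgeR adjusted p = 0.0171).

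INSR is a receptor tyrosine kinase and was the most abundant member. Insr (chromosome 8, 3122061 to 3279617, minus strand, 13.7 kb of exon) had 55.0, 42.7 and 46.1 CPM in Fhl2 KO libraries, against 59.4, 56.3, 58.4 and 57.9 CPM in WT. All Fhl2 KO libraries were below the WT range, library 1 only narrowly. Insr fell (log2 fold change -0.28, SE 0.0977, edgeR adjusted p = 0.0422), to 47.9 ± 6.36 CPM in Fhl2 KO (SD, n = 3) against 58.0 ± 1.29 CPM in WT (SD, n = 4). The call was lost on leaving out Fhl2 KO library 2 or 3 (edgeR adjusted p of 0.204 and 0.157) or WT library 1, 2, 3 or 4 (0.117, 0.0673, 0.0855 and 0.0957), and with libraries scaled by their totals alone (0.0699). Corrected for length and GC, the value took the other sign, 0.12 (SE 0.0656, edgeR adjusted p = 0.187). In the bin of longest exons, where the median was -0.32, 42.9% of genes were called lower and 57.6% had a lower value than Insr.

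**Figure D2:**
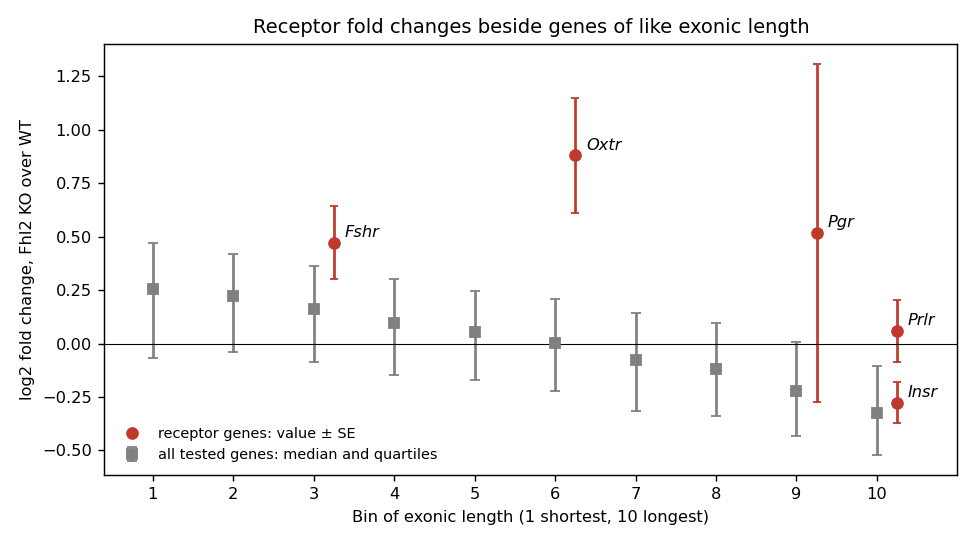
log2 fold change, Fhl2 KO over WT (y axis), of tested genes in 10 bins of exonic length (x axis, 1557 or 1558 genes each); grey squares and bars are the median and quartiles of all genes in a bin, red points are receptor genes ± SE, and Ptgfr, without WT reads, is left out. The median goes from 0.25 in the shortest bin to -0.32 in the longest, where Insr lies near the median and Prlr above it.

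**Figure D3:**
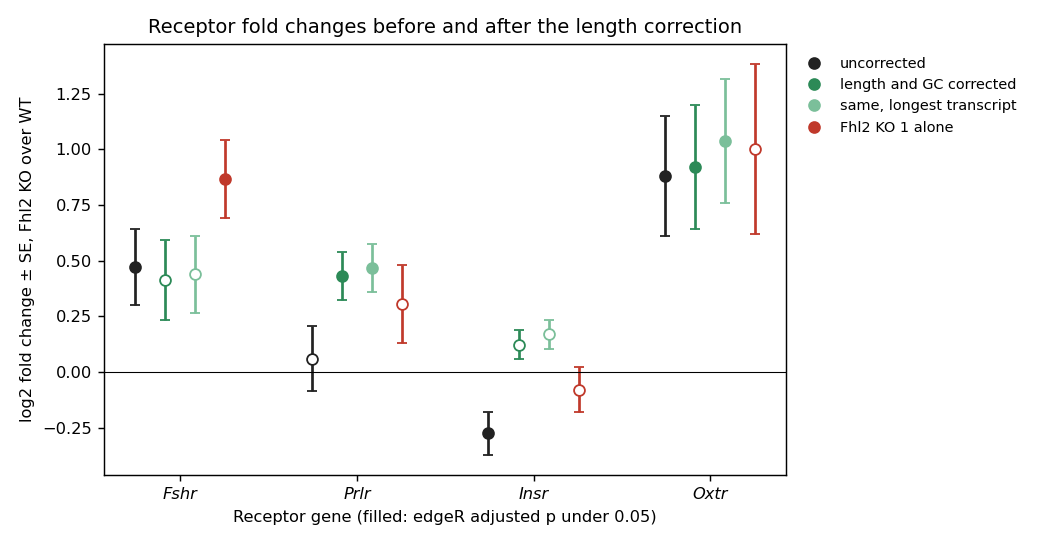
log2 fold change ± SE, Fhl2 KO over WT (y axis), of Fshr, Prlr, Insr and Oxtr (x axis) without correction, with the correction for length and GC using the exon union or the longest transcript, and for Fhl2 KO library 1 alone against the 4 WT libraries; filled points have an edgeR adjusted p under 0.05. Prlr is at 0.06 without and 0.43 with the correction, Insr is at -0.28 without and 0.12 with it, and Oxtr stays between 0.88 and 1.04.

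Genes that couple the insulin receptor to its effectors were more often lower than higher before the correction. The share called was 57.9%, against 29.0% of all genes tested. Among 19 tested, 2 rose, 9 fell and the other 8 did not pass (after correction 3 higher and 3 lower; median -0.23, corrected -0.00189). Grb10, an inhibitory adaptor of INSR, had a log2 fold change of -0.63 (SE 0.0992, corrected -0.35), and the substrate Irs1 of -0.59 (SE 0.122, corrected -0.34). The kinase subunit Pik3cb fell by 0.47 (corrected -0.26). Grb14, another inhibitory adaptor, rose to 827.4 ± 36.9 CPM in Fhl2 KO (SD, n = 3), against 646.8 ± 32.1 CPM in WT (SD, n = 4; log2 fold change 0.36 with SE 0.0863, edgeR adjusted p = 0.00696, corrected 0.52). The count of lower genes was 4 without Fhl2 KO library 2 or WT library 1 or 3, and 3 without Fhl2 KO library 3 or WT library 4; that of higher genes was 1 without Fhl2 KO library 3. Igf1r, the nearest relative of Insr, named after its value was seen, was at -0.23 (SE 0.0880, edgeR adjusted p = 0.0569) and at 0.22 corrected (0.0703), the same turn of sign as Insr.

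PGR is a nuclear receptor whose induction by the LH surge is needed for ovulation. Pgr (chromosome 9, 8899833 to 8968611, plus strand) had 4, 13 and 15 reads in Fhl2 KO libraries 1 to 3, against 0, 2, 16 and 12 reads in WT libraries 1 to 4. The totals were 32 reads in Fhl2 KO and 30 reads in WT, 0.243 and 0.167 CPM, and the WT libraries differed more among themselves than the groups did. The ratio was 1.45, with an exact 95% interval of 0.855 to 2.47 for counting error only (log2 fold change 0.52, SE 0.791, edgeR adjusted p = 0.665). The test thus called no difference in Pgr, where WT libraries alone spanned 0 to 16 reads.

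Targets of LH and of PGR at ovulation included genes of both signs. Calls made up 36.8% of them, against 29.0% of all genes tested. A total of 2 rose and 5 fell among 19 tested, and 12 did not pass (after correction 3 higher and 4 lower; median 0.14, corrected 0.18). Pparg, a nuclear receptor controlled by PGR in mouse granulosa cells, fell to 35.9 ± 4.67 CPM in Fhl2 KO (SD, n = 3) against 60.7 ± 1.51 CPM in WT (SD, n = 4; log2 fold change -0.76 with SE 0.0989, edgeR adjusted p = 7.08e-05). Runx2, a transcription factor, was lower (log2 fold change -0.71 with SE 0.108, corrected -0.46), as was Has2, which makes the hyaluronan of the cumulus matrix (-1.16 with SE 0.203). Cebpb, a factor downstream of LH, rose by 0.62 (SE 0.112, edgeR adjusted p = 0.00118). The count of lower genes was 3 without Fhl2 KO library 3 or WT library 4.

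PTGFR couples to Gq and is the receptor by which prostaglandin F2alpha ends progesterone output of the corpus luteum. Ptgfr (chromosome 3, 151796502 to 151837630, minus strand) had 29, 44 and 44 reads in Fhl2 KO libraries 1 to 3, against 0 reads in each of the 4 WT libraries. It was detected in every Fhl2 KO library, and a count of 0 in WT allows up to 0.0167 CPM over the group. In Fhl2 KO it stood at 0.739, 0.938 and 0.966 CPM, or 0.881 ± 0.124 CPM (SD, n = 3). Allowing 3 counts over the pooled WT libraries, the ratio of Fhl2 KO to WT was 53.1. For counting error only, the exact 95% interval began at 42.5-fold. The call (edgeR adjusted p = 2.40e-05) held in all 20 alternative settings that tested Ptgfr. These were refits of the same counts, and Ptgfr passed the filter on low counts through its Fhl2 KO reads alone. The call thus adds no support beyond the counts. Requiring 1 CPM or more in 3 libraries removed Ptgfr. Of 28682 rows with 0 counts in all WT libraries, 3494 had any read in Fhl2 KO and 6 had at least the 117 reads of Ptgfr, itself included. Rows at 0 in WT with a read in each Fhl2 KO library made up 0.230% of the 30040 rows with any count. A gene on the opposite strand, Gm43618, shares 329 exonic bases with Ptgfr and had 0 counts in all libraries.

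For Ptgfr, detected in the Fhl2 KO libraries alone, the RefSeq window (GRCm38.p6) reaches 102 bases into the gene as GENCODE M21 annotates it. The 148 bases of the window outside that gene, at chr3:151837631-151837778 on the minus strand, are printed with the motif match in capitals.
Ptgfr: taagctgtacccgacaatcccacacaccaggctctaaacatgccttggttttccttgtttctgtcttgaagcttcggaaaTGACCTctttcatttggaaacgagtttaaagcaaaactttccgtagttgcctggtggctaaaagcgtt
These bases had 43.9% GC and held 1 AGGTCA, read on the other strand and so printed as its reverse complement, and none of the other motifs. The 102 bases of the window not printed held 1 GGGCGG. Of the 7 members, 6 had an entry among the promoters and Insr was not among them.

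Markers that moved with Ptgfr and Lhcgr were read beside them. Of 6 luteal cell markers outside the receptor set, 4 rose and none fell, and their summed level was 1163 to 1297 CPM in Fhl2 KO against 667.1 to 683.1 CPM in WT. Cyp11a1 carried that difference, and the other 5 summed to 371.5 to 451.9 CPM in Fhl2 KO against 369.4 to 399.5 CPM in WT. Akr1c18, the enzyme that breaks down progesterone and is induced through PTGFR in the rodent corpus luteum, had 51, 89 and 67 reads in Fhl2 KO libraries 1 to 3, against 2, 6, 5 and 6 reads in WT. Fhl2 KO library 1 was the lowest of its group for Ptgfr and Akr1c18 alike. A list of 10 lung genes summed to 1.43 to 31.9 CPM in Fhl2 KO and 0.128 to 0.697 CPM in WT. Its most abundant gene Sftpc had 121, 409 and 12 reads in Fhl2 KO libraries 1 to 3, against 4, 0, 0 and 0 in WT. Of 8 surface and oviduct epithelium markers, 7 were tested and 5 rose, with a sum of 139.1 to 181.1 CPM in Fhl2 KO and 109.3 to 125.3 CPM in WT. The part of lung or epithelial cells in the Ptgfr reads was not tested.

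**Figure D4:**
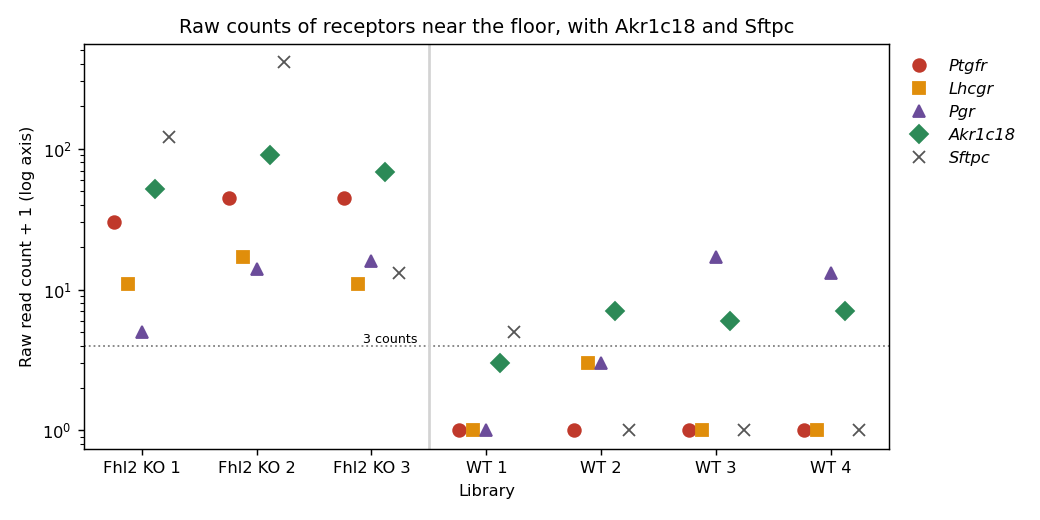
Raw read counts plus 1 (y axis, log scale) of Ptgfr, Lhcgr and Pgr, with Akr1c18 and the lung gene Sftpc, in each library (x axis); the dotted line marks 3 counts. Ptgfr and Lhcgr are above it in all 3 Fhl2 KO libraries and below it in all 4 WT libraries, and Pgr is above it in all Fhl2 KO libraries and in WT libraries 3 and 4. Sftpc has 121, 409 and 12 reads in the Fhl2 KO libraries.

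OXTR is the Gq-coupled oxytocin receptor. Oxtr (chromosome 6, 112473683 to 112489943, minus strand) had 153, 182 and 135 reads in Fhl2 KO libraries 1 to 3, against 44, 68, 127 and 111 reads in WT libraries 1 to 4. The levels were 3.90, 3.88 and 2.96 CPM in Fhl2 KO and 1.14, 1.35, 2.72 and 2.54 CPM in WT. The WT libraries formed a low pair (1 and 2) and a higher pair (3 and 4), and the highest of them lay just under Fhl2 KO library 3. Oxtr was 1.84-fold higher in Fhl2 KO (edgeR adjusted p = 0.0244), that is 0.88 on the log2 scale (SE 0.270), and 0.92 once corrected (0.0257). The call was lost without Fhl2 KO library 3 (log2 fold change 1.00, edgeR adjusted p = 0.0574), without WT library 2 (0.75, 0.0525) and for Fhl2 KO library 1 alone against WT (1.00, 0.170). Of 7 tested smooth muscle and pericyte markers, 4 were lower and none higher, with a sum of 467.6 to 545.3 CPM in Fhl2 KO against 883.5 to 977.7 CPM in WT. Most of that sum was Acta2, and without it the markers summed to 15.2 to 18.3 CPM in Fhl2 KO against 38.0 to 45.1 CPM in WT. The part of such cells in the Oxtr values was not tested.

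Genes that carry signals from PTGFR and OXTR through Gq and calcium had calls in the lower direction alone before the correction. Calls made up 35.3% of this list, against 29.0% of all genes tested. Among 17 tested, none rose, 6 fell and the other 11 did not pass (after correction 1 higher and 4 lower; median -0.31, corrected -0.12). Rgs2, which switches off Gq, fell to 13.0 ± 1.64 CPM in Fhl2 KO (SD, n = 3) against 22.3 ± 3.09 CPM in WT (SD, n = 4; log2 fold change -0.78 with SE 0.126, edgeR adjusted p = 5.13e-04, corrected -0.77). The protein kinase C gene Prkca fell too (log2 fold change -0.67, SE 0.113, corrected -0.38). Gnaq, the Gq alpha subunit, fell by 0.30 (corrected -0.12, edgeR adjusted p = 0.200), and the calcium-dependent kinase Camk2d by 0.32 (corrected 0.20, 0.165). The count of lower genes was 11 without Fhl2 KO library 1, 3 without Fhl2 KO library 2 or WT library 1 or 4, and 2 without Fhl2 KO library 3.

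Genes that couple FSHR and LHCGR to cAMP were called about as often as genes at large, 28.6% against 29.0%. Among 28 tested, 2 rose, 6 fell and the other 20 did not pass (after correction 2 higher and 4 lower; median -0.13, corrected -0.02). Prkar2a, a regulatory subunit of protein kinase A, fell to 19.98 ± 3.22 CPM in Fhl2 KO (SD, n = 3) against 34.1 ± 2.29 CPM in WT (SD, n = 4; log2 fold change -0.77 with SE 0.113, edgeR adjusted p = 1.94e-04, corrected -0.60). The cAMP phosphodiesterases moved apart, with Pde4b higher by 0.58 (SE 0.129, corrected 0.92) and Pde3b lower at -0.91 (SE 0.217, corrected -0.64). Gipc1, a scaffold known to bind the human LH receptor, rose by 0.40 (SE 0.0990), with a corrected 0.17 that did not pass (edgeR adjusted p = 0.0622). Without Fhl2 KO library 3 the counts were 1 higher and 1 lower.

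Genes of 9 peptide hormones and growth factors that bind these or related receptors were read as well, and 8 of them were under the filter on low counts. Cga, Fshb, Lhb and Ins1 had 0 counts in all 7 libraries, Prl and Ins2 had 2 and 4 reads in a single Fhl2 KO library each, and Oxt had 3 reads in a single WT library. Igf1, a local growth factor that acts with FSH, was the one tested and fell by 0.54 (SE 0.0928, corrected -0.30).

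Among genes that FSH induces in granulosa cells, 4 rose and 7 fell of 13 tested (after correction 5 and 6). That is 84.6% called, against 29.0% of all genes tested. The share includes Fhl2, the targeted gene, among those that fell, before and after the correction. This list was also chosen with earlier results of these data known. The median was -0.28 (corrected -0.15). Sgk1, a kinase downstream of FSH, rose to 75.5 ± 4.05 CPM in Fhl2 KO (SD, n = 3) against 41.6 ± 1.247 CPM in WT (SD, n = 4; log2 fold change 0.86 with SE 0.0862, edgeR adjusted p = 4.16e-06). The inhibin subunit Inha rose by 0.71 and Inhbb fell by 0.77. Cyp19a1, the aromatase that FSH induces, was under the filter and named after its values were seen. It had 8, 17 and 6 reads in Fhl2 KO libraries 1 to 3 and 0 reads in all 4 WT libraries. With the same 3 counts allowed over WT, the ratio of Fhl2 KO to WT was 14.1 for Cyp19a1. The exact 95% interval began at 10.8-fold, for counting error only. Ptgfr, Lhcgr and Cyp19a1 thus had reads above the floor in each Fhl2 KO library and at most 2 in any WT library. Ptgfr and Cyp19a1 were among 69 rows at 0 in WT with a read in each Fhl2 KO library, 0.230% of the 30040 rows with any count.

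Luteal and luteolysis genes outside the receptor set had 12 of 22 tested higher, 3 lower and 7 not past the test (after correction 14 higher and 2 lower; median 0.36, corrected 0.44). The share called was 68.2%, against 29.0% of all genes tested. Cyp11a1 and Hsd3b1, enzymes of progesterone synthesis, rose by 1.50 and 1.35, Fdx1 by 0.87 and Akr1c18 by 3.85 (SE 0.410) on the log2 scale. The count of higher genes stayed between 8 and 15 over 21 alternative settings, and that of lower genes was 1 without Fhl2 KO library 3. Of 7 tested RNA-binding and decay factors, 4 fell and none rose (after correction 1 higher and 3 lower; median -0.25, corrected -0.18), among them Ybx1, Zfp36l2, Zfp36l1 and Dhx15 at -0.38, -0.32, -0.25 and -0.28. Calls made up 57.1% of these factors. None of them fell without Fhl2 KO library 3, and 1 or 2 fell without Fhl2 KO library 2 or any single WT library, while 2 rose without Fhl2 KO library 1. Mvk, known in rat ovary as the protein that binds Lhcgr mRNA and leads it to decay, was named after its value was seen and was at -0.03 (SE 0.134, edgeR adjusted p = 0.896).

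Other hormone receptors, too, were called at a share near that of all genes, 29.6%. Among 27 tested, 1 rose, 7 fell and the other 19 did not pass (after correction 1 higher and 5 lower; median -0.11, corrected -0.00510). The receptor that rose was Avpr1a, the vasopressin receptor that belongs to the same family as OXTR. It had 414, 613 and 598 reads in Fhl2 KO libraries 1 to 3, against 237, 300, 281 and 331 reads in WT. Scaled for depth, the groups did not overlap, with 12.3 ± 1.47 CPM in Fhl2 KO (SD, n = 3) and 6.42 ± 0.775 CPM in WT (SD, n = 4; log2 fold change 0.93 with SE 0.133, edgeR adjusted p = 1.59e-04). Avpr1a passed in all 21 alternative settings. Among those that fell were the endothelin receptor Ednra (-0.99, SE 0.122) and Igf2r (-0.74, corrected -0.50). The count of lower receptors was 11 without Fhl2 KO library 1 and 1 without Fhl2 KO library 3, and that of higher ones was 2 without Fhl2 KO library 1 or 2.

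**Figure D5:**
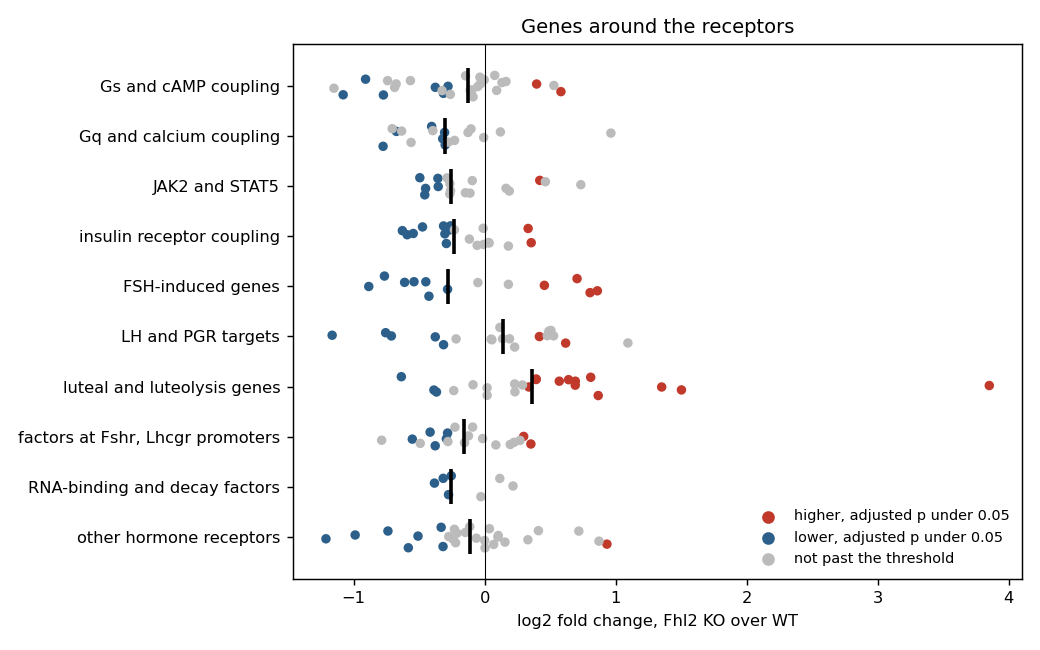
log2 fold change, Fhl2 KO over WT (x axis), of each tested gene in 10 lists of genes around the receptors (y axis); red points are higher and blue points lower at an edgeR adjusted p under 0.05, grey points did not pass, and black lines are list medians. Luteal and luteolysis genes have most red points, 12 of 22, and Akr1c18 lies far to the right at 3.85.

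Genes whose profiles over the 7 libraries were close to those of the members were found by the root mean square (RMS) difference of log2 CPM, each gene centred on its own mean, among 9818 genes. For Insr they were E2f6 (0.0226), Dpysl3 (0.0255) and S100pbp (0.0275), and for Prlr Zfp229 (0.0602) and Scai (0.0736). Close to Fshr were Kif26b (0.121), Gpr39 (0.146) and Chst11 (0.147), and close to Oxtr were Ctsk (0.328) and Gsg1l (0.346). The nearest to Ptgfr were Krt7 (1.01), Adh1 (1.10) and Nt5e (1.22), which had reads in WT and so differ from it by over 1 log2 unit. Pgr, with few reads, had Sumo2 (0.504), Sarnp (0.845) and Hist1h1c (0.856).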

How the data were processed

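The members were the 7 rows of the count table with the chosen symbols. The authors deposited counts of reads per gene symbol, whole numbers with no normalization. TRIzol RNA and a strand-specific mRNA library kit were used, per the labels' protocols. The submitters' processing notes list HISAT2 2.2.1, featureCounts 1.6.4, fastp, SAMtools, DESeq2 1.28.1 and Cufflinks 2.2.1 in no stated order, and build mm10. Neither annotation nor strand setting is given in the sources used here, so reads of overlapping genes may be mixed. The labels do not tie libraries to animals or cultures. The p-values thus measure only the spread between these samples, which may be technical.

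Testing used edgeR 4.0.16 under R 4.3.3 (filterByExpr, minimum count 10, TMM, glmQLFit with robust estimation, genotype as the only term), adjusted by Benjamini-Hochberg over 15798 genes. Fold changes are Fhl2 KO over WT, and a call is an adjusted p under 0.05. SE came from the F statistic. Untested rows held 0.0511% of counts. Length and GC came from GENCODE M21 (mm10), where 96.7% of rows had a unique symbol and 98.6% of tested genes had both. In the correction, natural splines (4 degrees of freedom) of log2 CPM against length and GC, fitted per library on genes above 1 CPM, were an edgeR offset. Permutations used SciPy 1.17.1. The fits were tested on simulated counts in which all libraries of a group shared the same length trend or had none. The simulation thus lacked the spread of that trend between the Fhl2 KO libraries. No libraries were duplicates (chi-square per degree of freedom at least 10.5).

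Members, lists and tests were chosen with earlier results of these data known. Up to 4 genes of smallest p were named per list, and for each tested member the 3 genes most alike in profile, above 5 CPM. Some genes that these rules cover are not reported here. The longest-transcript length and the lung list were added after seeing the data. Alternatives were DESeq2 1.42.0, limma 3.58.1 voom with quality weights, other scalings and filters, no robust estimation, each library left out, the replicate number as a block, and Fhl2 KO library 1 alone.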

Additional observations from a re-analysis of the deposited data

Results flagged for a closer look

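Within the WT group, a single library stood far from the other 3 for 2 of the 9 measures checked. For Lhcgr, WT library 2 had the only reads, so that its gap to the nearest library equals the whole range of the group (ratio 1). Any gene with reads in a single library of the group gives this ratio, so the flag reflects the low counts. For Prlr, WT library 3 had 10.4 CPM against 7.67 to 8.13 CPM in the others, a gap of 0.8293 of the range, just past the 95% critical value for 4 libraries. Chance flags about 1 in 20 groups of normally spread values, a rate that does not hold for counts as sparse as those of Lhcgr. Without WT library 3 the log2 fold change of Prlr was 0.17 (edgeR adjusted p = 0.431).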

How the results depend on the processing

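Calls of Ptgfr kept their direction and side of the threshold in all 20 alternatives that tested it. These refits used the same counts, and Ptgfr passed the filter through its Fhl2 KO reads alone, so they add no support. Requiring 1 CPM or more in 3 libraries removed Ptgfr and Pgr. Members called ranged from 1 to 3 on leaving out a library, and were 2 with the replicate block, with the same 6 libraries without it, with block and correction, and for Fhl2 KO library 1 alone. All genes called ranged from 1657 (without Fhl2 KO library 3) to 6740 on leaving out a library, with 2994 and 2960 without WT library 3 or 4, 2526 with block and correction, and 781 for Fhl2 KO library 1 alone.

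Fshr (0.47 on the log2 scale) lost its call without robust estimation (0.47, edgeR adjusted p = 0.0538), with voom (0.36), the block (0.46), the same 6 libraries without it (0.50), the correction (0.41), block and correction (0.38), length alone (0.36) and the longest transcript (0.44), and was 0.25 to 0.67 on leaving out a library. Its adjusted p ranged from 0.00451 to 0.221. Insr lost its call with library totals (-0.24), the block (-0.28), the same 6 libraries (-0.28) and Fhl2 KO library 1 alone (-0.0788), was -0.37 to -0.19 on leaving out a library, and turned to 0.12 with the correction, 0.12 with block and correction, 0.0889 with length alone and 0.17 with the longest transcript. Prlr passed with the correction (0.43), length alone (0.45) and the longest transcript (0.47) but not with block and correction (0.41, edgeR adjusted p = 0.0605), and was -0.0572 to 0.17 on leaving out a library. Oxtr was 0.72 to 1.09 on leaving out a library and 1.00 for Fhl2 KO library 1 alone, and Pgr was -0.69 there. Camk2d turned to 0.20 with the correction, 0.24 with block and correction and 0.18 with length alone. The causes were not tested.

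The replicate numbers gave no sign of pairing samples: same-numbered deviations correlated at 0.0326, -0.00130 and -0.0324, and samples did not all correlate best with their own number. The block called 3301 genes, against 2960 in the same 6 libraries without it. The Fhl2 KO minus WT difference in the log2 ratio of Lhcgr to Fshr stayed between 2.86 and 4.15. The pooled Lhcgr ratio of Fhl2 KO to WT stayed between 4.18 and 4.76 on the log2 scale. It was not computed without WT library 2, which left 0 reads, nor for the fits under whose filter Lhcgr fell. Depth limits Lhcgr, which had few reads.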
